A study of Mus musculus with 90 samples.

Results

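The genes described here are 10 members of the core circadian clock, namely Arntl, Clock, Per1, Per2, Per3, Cry1, Cry2, Nr1d1, Nr1d2 and Dbp. They were taken from the count table by name, as the identifiers that Gencode M21 maps to these symbols, and each symbol matched 1 identifier. They are thus 10 of the 37991 Ensembl identifiers in the table, and the rule that picks their lines uses symbols alone. All 10 passed the filter on low counts in every fit, and their counts ran from 937 reads in the library lowest for Cry1 to 11681 reads in the library highest for Per1.

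The clock is a feedback loop that runs with a period near a day in most cells. ARNTL (also called BMAL1) and CLOCK form a dimer that binds E-box sequences and switches on the Per and Cry genes, and PER and CRY proteins then return to the nucleus and repress that dimer. A second loop runs through NR1D1 and NR1D2 (REV-ERB alpha and beta), which repress Arntl, and the dimer also drives the output factor DBP, which acts on D-box sequences. In the brain the suprachiasmatic nucleus of the hypothalamus sets the rhythm of the whole animal, while other regions hold their own loops, and Per1 also responds quickly to neuronal activity and to glucocorticoids.

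RNA came from amygdala, frontal cortex and hypothalamus of 32 resident male mice of the C57BL/6J strain that had lived with a female and were housed on a 12L:12D light cycle. For 5 min a resident met either an unfamiliar BALB/cJ male behind wire mesh (intruder) or the same mesh cage with only a paper cup in it (control), and it was then left in darkness for 30, 60 or 120 min before cervical dislocation. The 90 libraries form 18 groups of region, time and condition with 5 animals each, except 3 for the hypothalamus of controls at 30 min and 6 for the frontal cortex at 120 min in both conditions. The time of day of the exposure is not given in the sources used here, so time below means minutes after exposure, and controls share the removal of the female before the test, the mesh cage and the dark interval with the intruder groups. No untouched animals were analysed here. The labels give each library an animal number, and 28 animals gave all 3 regions.

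Gene reads per library ranged from 38.6 M to 58.86 M. The column names carry a tag that is ISO for the 28 libraries of 30 min and CERV for the 62 later ones, with a meaning that the labels do not give, so 30 min cannot be told apart from that tag. The 12 leading library indices also follow the groups closely. The defining markers of hypothalamus summed to 461 to 1120 CPM (counts per M gene reads, TMM-scaled) in hypothalamus libraries, against 19.4 to 88.8 in amygdala and 1.57 to 17.8 in frontal cortex. The amygdala markers did not separate amygdala (305 to 443 CPM) from frontal cortex (316 to 455 CPM). Six6, a transcription factor of the suprachiasmatic nucleus, reached 5.42 to 17.2 CPM in every hypothalamus library and at most 0.447 CPM elsewhere. Of the other 6 markers of that nucleus, Nms, Lhx1, Vipr2 and Avp had higher medians in hypothalamus than in both other regions. Vip was lower there (median 11.3 CPM) than in frontal cortex (47.1) and amygdala (19.5), and Prok2 (0.861) was not above amygdala (0.953). The share of that nucleus in the hypothalamus samples was not measured.

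Start regions of 4 members are shown because they hold letter matches to elements of the kinds that clock factors bind. They are RefSeq sequences of build GRCm38.p6, from 250 bases before to 50 bases after the start, 5′ to 3′ on the gene's strand, with the matches named here in capitals. The lines below give Per1 (chr11:69098699-69098998, plus strand, an E-box CACGTG at -166 from the start), Nr1d1 (chr11:98775328-98775627, minus strand, the E-box variant AACGTG at -28), Per3 (chr4:151044616-151044915, minus strand, D-boxes TTATGTAA at -205 and -158) and the second start site of Arntl (chr7:113207261-113207560, plus strand, an element of the kind bound by ROR and REV-ERB factors at base 27).
Per1: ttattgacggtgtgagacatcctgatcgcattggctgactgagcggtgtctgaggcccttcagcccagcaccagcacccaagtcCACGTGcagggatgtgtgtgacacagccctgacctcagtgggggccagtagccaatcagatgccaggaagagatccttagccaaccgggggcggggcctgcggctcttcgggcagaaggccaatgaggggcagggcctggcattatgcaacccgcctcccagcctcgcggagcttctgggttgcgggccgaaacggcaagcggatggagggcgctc
Nr1d1: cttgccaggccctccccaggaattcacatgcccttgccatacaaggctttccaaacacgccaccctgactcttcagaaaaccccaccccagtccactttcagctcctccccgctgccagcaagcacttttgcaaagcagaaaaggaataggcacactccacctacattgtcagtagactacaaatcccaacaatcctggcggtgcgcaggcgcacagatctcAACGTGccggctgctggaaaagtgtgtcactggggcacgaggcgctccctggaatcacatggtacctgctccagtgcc
Per3: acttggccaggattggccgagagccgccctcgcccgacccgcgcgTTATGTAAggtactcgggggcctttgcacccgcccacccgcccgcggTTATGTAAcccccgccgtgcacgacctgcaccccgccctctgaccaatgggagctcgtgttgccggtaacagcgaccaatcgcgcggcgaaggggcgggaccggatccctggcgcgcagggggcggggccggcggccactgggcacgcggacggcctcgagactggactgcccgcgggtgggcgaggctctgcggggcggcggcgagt
Arntl: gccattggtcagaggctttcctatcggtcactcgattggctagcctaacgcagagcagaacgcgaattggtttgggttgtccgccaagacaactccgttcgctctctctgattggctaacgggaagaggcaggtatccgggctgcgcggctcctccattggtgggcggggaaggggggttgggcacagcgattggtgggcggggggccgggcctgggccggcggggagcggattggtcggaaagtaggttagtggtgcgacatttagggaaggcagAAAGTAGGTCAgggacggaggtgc
Among the other members, Cry1 held an E-box at -60 and the variant at -79, and Cry2 held the variant at -166. No searched E-box, D-box or ROR element lay in these windows of Clock, Nr1d2 or Dbp. For Per2 no window was available, so it was not searched. Of 32851 mouse promoters of the same length, 7.15% held the E-box CACGTG, 4.68% its variant CACGTT read on either strand, 1.59% a D-box (TTATGTAA, TTACGTAA, TTACATAA or TTATATAA) and 0.384% the ROR element. The short form of the cyclic AMP response element, TGACG read on either strand, also lies at -246 of the Per1 window, where it stands in lower case, and is held by 20.8% of those promoters. It lies at -8 of Cry1 and at -209 of Cry2 too. A second start site of Per1, not shown, holds it at -132, with no searched E-box, D-box or ROR element in its window. A match describes letters only and was not measured as binding here.

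Levels between genes were compared as CPM per kb of annotated exon in the 44 control libraries, since exon length runs from 2.99 kb for Dbp to 13.73 kb for Clock. Dbp, both REV-ERB genes, Cry2 and Per1 were the 5 highest in all 3 regions, and Arntl and Clock were the lowest. In frontal cortex Dbp stood at 32.2 ± 4.78 CPM per kb (SD, n = 16), Nr1d1 at 31.9 ± 5.09, Nr1d2 at 29.6 ± 3.63, Cry2 at 29.2 ± 1.81 and Per1 at 28.0 ± 4.38, and these 5 lay within each other's spread. Per2 followed at 15.8 ± 1.64, and its highest library (18.5) was just below the lowest of Per1 (18.6). Cry1 stood at 9.04 ± 0.765, with its highest library (10.5) below the lowest of Per2 (12.7). Per3 at 7.43 ± 1.03, Clock at 6.36 ± 0.914 and Arntl at 5.14 ± 0.493 came last, and from Cry1 down neighbours overlapped.

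In amygdala the order on the same per-kb scale was Nr1d2 (23.0 ± 2.65, n = 15), Cry2 (22.8 ± 1.22), Dbp (21.6 ± 5.27), Nr1d1 (19.3 ± 2.93), Per1 (17.0 ± 2.44), Per2 (10.7 ± 1.06), Cry1 (7.26 ± 0.944), Per3 (6.04 ± 0.587), Clock (5.98 ± 0.544) and Arntl (3.96 ± 0.381). Neighbours in that order overlapped except at 2 steps: the highest library of Per2 (12.8) was below the lowest of Per1 (13.5), and the highest of Arntl (4.65) was below the lowest of Clock (4.98). In hypothalamus Nr1d2 stood alone at 24.8 ± 0.815 CPM per kb (n = 13), and its lowest library (23.5) was above every library of the other 9 genes. Nr1d1 (15.8 ± 1.87), Dbp (15.1 ± 2.46), Cry2 (14.8 ± 0.712) and Per1 (13.2 ± 1.75) came next and overlapped, followed by Per2 (8.37 ± 0.92), Cry1 (7.22 ± 0.377), Per3 (6.77 ± 0.655), Clock (6.26 ± 0.355) and Arntl (3.31 ± 0.158). Here too Per2 (highest 9.92) lay below Per1 (lowest 10.5), and Arntl (highest 3.53) below Clock (lowest 5.52). The annotated length joins all isoforms, so the order depends on which of them are used.

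**Figure D1:**
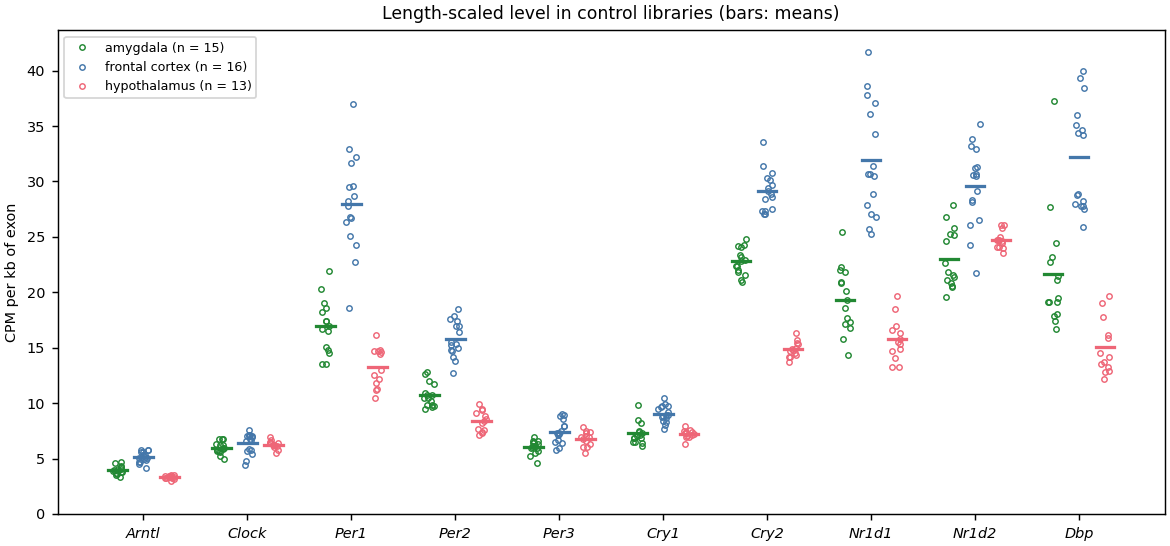
Level of each clock gene in control libraries by region, as CPM per kb of exon on a linear vertical axis, with 1 point per library and a bar at the mean. The regions are fully separated for Cry2 (frontal cortex, then amygdala, then hypothalamus) and overlap for Clock.

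The regions were compared within controls, with the 9 groups of region and time fitted together and times weighted equally. The clock was expressed more strongly in frontal cortex than in hypothalamus for 9 of the 10 genes, by up to a log2 difference of 1.10, and Clock itself did not differ detectably. All 10 genes were lower in amygdala than in frontal cortex, and 6 were higher in amygdala than in hypothalamus. Most genes of the genome also differ between these regions: with edgeR's quasi-likelihood test and a Benjamini-Hochberg adjusted p below 0.05 (called below), 82.2% of 18056 tested genes were called for hypothalamus against frontal cortex, 67.8% for amygdala against frontal cortex and 72.3% for amygdala against hypothalamus. Without regard to direction, the counts of 9, 10 and 8 called members therefore lie not far from the background. The 9 and the 10 were all lower than in frontal cortex, whereas the shares over all genes count both directions. The median difference over the 10 members was -0.796 for hypothalamus against frontal cortex, beside 0.00733 over all genes. For amygdala against frontal cortex the medians were -0.383 and 0.0104. In such tissue pieces, fewer cells of a type and less RNA per cell cannot be told apart.

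Arntl, which encodes one partner of the activating dimer, was measured at 31.0 to 43.6 CPM in frontal cortex (median 38.5), 25.3 to 35.0 in amygdala (median 29.1) and 22.1 to 26.6 in hypothalamus (median 25.1). Every hypothalamus control was below every frontal cortex control. The log2 difference was -0.65 (SE 0.047, adjusted p = 8.83e-16) for hypothalamus and -0.39 (SE 0.044, adjusted p = 4.37e-10) for amygdala, both against frontal cortex. Clock, its partner with intrinsic histone acetyltransferase activity, was at 61.1 to 104 CPM in frontal cortex, 68.4 to 93.2 in amygdala and 75.8 to 94.7 in hypothalamus, and the 3 ranges overlapped. Its difference between hypothalamus and frontal cortex was -0.03 (95% interval -0.111 to 0.0528, adjusted p = 0.506). Its lower level in amygdala than in frontal cortex, -0.09 (adjusted p = 0.041), was lost with DESeq2 size factors (adjusted p = 0.0604), with no filter on low counts (0.141) and in DESeq2 (0.0587), and without the animals numbered 1, 2, 3 or 5 (0.0936, 0.104, 0.196 and 0.0518).

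Among the repressors, Per1, the most quickly inducible Period gene, was at 105 to 208 CPM in frontal cortex (median 158), 76.1 to 123 in amygdala (median 95.6) and 59.3 to 90.8 in hypothalamus (median 73.1). The hypothalamus range lay wholly below that of frontal cortex, and the amygdala range overlapped both. The log2 difference against frontal cortex was -1.10 in hypothalamus (SE 0.067, adjusted p = 2.8e-18) and -0.75 in amygdala (SE 0.062, adjusted p = 9.79e-14). Cry2, a cryptochrome that binds and represses the dimer, gave the cleanest separation, at 171 to 212 CPM in frontal cortex, 132 to 157 in amygdala and 86.3 to 103 in hypothalamus, with no overlap between any pair of regions. Its difference was -0.98 for hypothalamus (SE 0.028, adjusted p = 7.05e-29) and -0.37 for amygdala (SE 0.026, adjusted p = 8.71e-16) against frontal cortex.

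Per2, the second Period repressor, differed by -0.94 in hypothalamus and -0.57 in amygdala against frontal cortex, with ranges of 74.2 to 108 CPM in frontal cortex, 55.6 to 75.0 in amygdala and 41.7 to 58.1 in hypothalamus. Per3, the third Period gene, and Cry1 moved less. Per3 differed by -0.14 in hypothalamus (adjusted p = 0.00908) and -0.30 in amygdala (adjusted p = 3.79e-07), so that here hypothalamus exceeded amygdala (amygdala against hypothalamus -0.16, adjusted p = 0.00369). Leaving out the animals numbered 6 ended the first of these calls (-0.0936, adjusted p = 0.0747), and leaving out those numbered 2 ended the last (-0.104, adjusted p = 0.0989). Cry1 was lower by a like amount in hypothalamus (-0.35) and amygdala (-0.33) than in frontal cortex, and its difference between the former 2 regions was 0.01 (95% interval -0.0917 to 0.118).

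The REV-ERB genes parted from each other. Nr1d1 was at 77.9 to 128 CPM in frontal cortex, 44.2 to 78.2 in amygdala and 41.0 to 60.6 in hypothalamus, a difference of -1.02 (SE 0.072, adjusted p = 3.11e-16) for hypothalamus against frontal cortex. Nr1d2 was at 117 to 190 CPM, 106 to 151 and 127 to 141 in the same order, a difference of only -0.26 (SE 0.045, adjusted p = 2.01e-06). Hypothalamus exceeded amygdala for Nr1d2 (amygdala against hypothalamus -0.11, adjusted p = 0.0316), a call that was lost with no filter on low counts (adjusted p = 0.0513) and without the animals numbered 2, 3 or 4 (-0.0828, -0.0959 and -0.0953, adjusted p = 0.152, 0.136 and 0.0745). Dbp, the D-box activator downstream of the dimer, was at 77.6 to 120 CPM in frontal cortex, 49.8 to 112 in amygdala and 36.6 to 59.0 in hypothalamus, a difference of -1.09 (SE 0.094, adjusted p = 1.03e-13) for hypothalamus. Exons of Nr1d1 overlap those of Thra over 263 bases and exons of Dbp those of Sphk2 over 539 bases on the opposite strand, and whether counting used strand is not given in the sources used here, so the counts of these pairs may be shared.

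Of 20 further clock genes (paralogs, ROR and PAR-bZIP factors, kinases and ubiquitin ligases), 6 were called higher and 12 lower in hypothalamus than in frontal cortex. Npas2, the paralog of Clock, was lowest at -2.29, followed by the PAR-bZIP factor Hlf (-2.0), the E-box repressor Bhlhe40 (-1.88) and the deubiquitinase Usp2 (-1.60), while the cryptochrome ligase Fbxl21 (1.72) was higher. In amygdala against frontal cortex 3 of the 20 were called higher and 12 lower, and in amygdala against hypothalamus 6 higher and 7 lower. Over all genes 82.2%, 67.8% and 72.3% were called in either direction in these 3 comparisons, in the order given.

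Whether 5 min of exposure to an intruder changed the clock genes was asked in 9 comparisons, 3 times in each of 3 regions. None of the 10 genes passed the adjusted test in any of them, with a lowest adjusted p of 0.262 for Cry1 in amygdala at 120 min (edgeR's quasi-likelihood test). Of all genes, 0% were called in 7 comparisons, 0.538% in amygdala 120 min after exposure and 0.192% in hypothalamus at the same time. At an unadjusted p below 0.05, 2 members passed in amygdala at each time (2.74%, 7.13% and 15.1% of all genes at 30, 60 and 120 min). In frontal cortex 1 passed at each time (6.28%, 2.54% and 5.34% of all genes), and in hypothalamus 0, 1 and 2 passed (1.92%, 2.22% and 11.5%). DESeq2 also called 0 members in each comparison. The 20 further clock genes likewise held 0 calls in all 9 comparisons.

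Per2 in amygdala held both the lowest and the highest log2 difference of the 90 and changed side between times, while Dbp in frontal cortex at 60 min (0.24) and Cry1 in amygdala at 120 min (0.22) were nearly as large. At 30 min it was at 75.0, 64.0, 70.4, 60.0 and 61.7 CPM in controls and at 63.0, 52.4, 58.0, 60.7 and 53.4 CPM after an intruder, a log2 difference of -0.20 (unadjusted p = 0.0459, adjusted p = 1, edgeR). At 60 min it was at 68.4, 57.3, 56.3, 57.5 and 62.5 CPM in controls and at 80.1, 82.0, 64.6, 64.7 and 66.0 CPM after an intruder, a difference of 0.24 (unadjusted p = 0.0188, adjusted p = 0.65). The groups overlapped at both times, and the test of whether the intruder effect differed between the 3 times gave lowest adjusted p-values among the members of 0.286 (amygdala), 0.971 (frontal cortex) and 0.944 (hypothalamus).

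Arntl in amygdala at 30 min was the one case among the 90 of gene and comparison in which the groups did not overlap. It was at 28.6, 27.6, 29.0, 28.3 and 29.7 CPM in controls and 26.5, 25.9, 24.8, 27.3 and 26.6 CPM after an intruder, so the highest intruder library lay just under the lowest control. Over all genes, 0.78% had groups that did not overlap in that comparison, and in the others, which held 0 such members, the share was 0.387% and 3.01% in amygdala at 60 and 120 min, 1.03%, 0.382% and 0.245% in frontal cortex and 3.21%, 0.458% and 1.27% in hypothalamus. In the same comparison 9 of the 10 members were lower after an intruder, with a median log2 difference of -0.0622 beside -0.0078 over all genes, whereas at 60 min 8 of the 10 were higher, with medians of 0.0654 and 0.0032. At 120 min 5 were higher and 5 lower (median -0.00578). Genes of 10 kb of exon or more, of which Clock is the only one among the members, had medians of -0.0507, 0.0569 and 0.0627 at 30, 60 and 120 min. Genes of 5 to 10 kb had medians of -0.0235, 0.0261 and 0.0235, and genes of 2 to 5 kb 0.00578, -0.019 and -0.0151. The part of length in the members' values was not tested.

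Cry1 in hypothalamus at 120 min was at 24.3, 24.6, 26.4, 23.2 and 24.7 CPM in controls and 31.0, 25.3, 26.4, 27.5 and 27.9 CPM after an intruder. Intruder libraries lay at or above the middle of the controls, and the ranges overlapped (difference 0.16, unadjusted p = 0.00993, adjusted p = 0.326, edgeR). Cry1 in amygdala at 120 min stood at 22.8, 21.7, 22.9, 20.6 and 27.4 CPM in controls and 26.5, 25.1, 28.9, 25.3 and 28.7 CPM after an intruder (0.22, unadjusted p = 0.0264, adjusted p = 0.262), and 1 control lay among the intruder libraries. For Nr1d2 in hypothalamus at 60 min the controls ran from 130 to 141 CPM (median 133) and the intruder libraries stood at 138, 149, 148, 142 and 141 CPM (0.11, unadjusted p = 0.00942, adjusted p = 1), with an overlap at the top of the controls. No member's intruder effect differed between regions, with lowest adjusted p-values of 0.899 at 30 min, 1 at 60 min and 0.843 at 120 min.

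**Figure D2:**
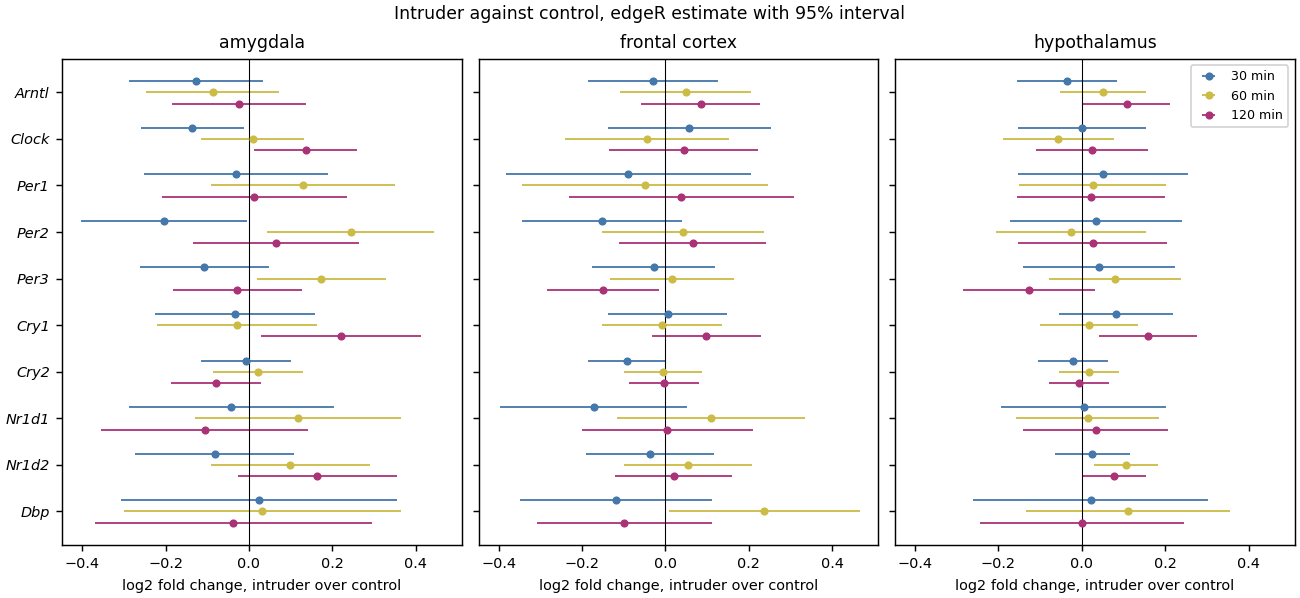
Log2 fold change of intruder over control (horizontal axis) for the 10 clock genes in 3 panels, 1 per region, with times after exposure in colours and 95% intervals from the edgeR fit. The estimates run from -0.204 to 0.244, both for Per2 in amygdala.

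**Figure D3:**
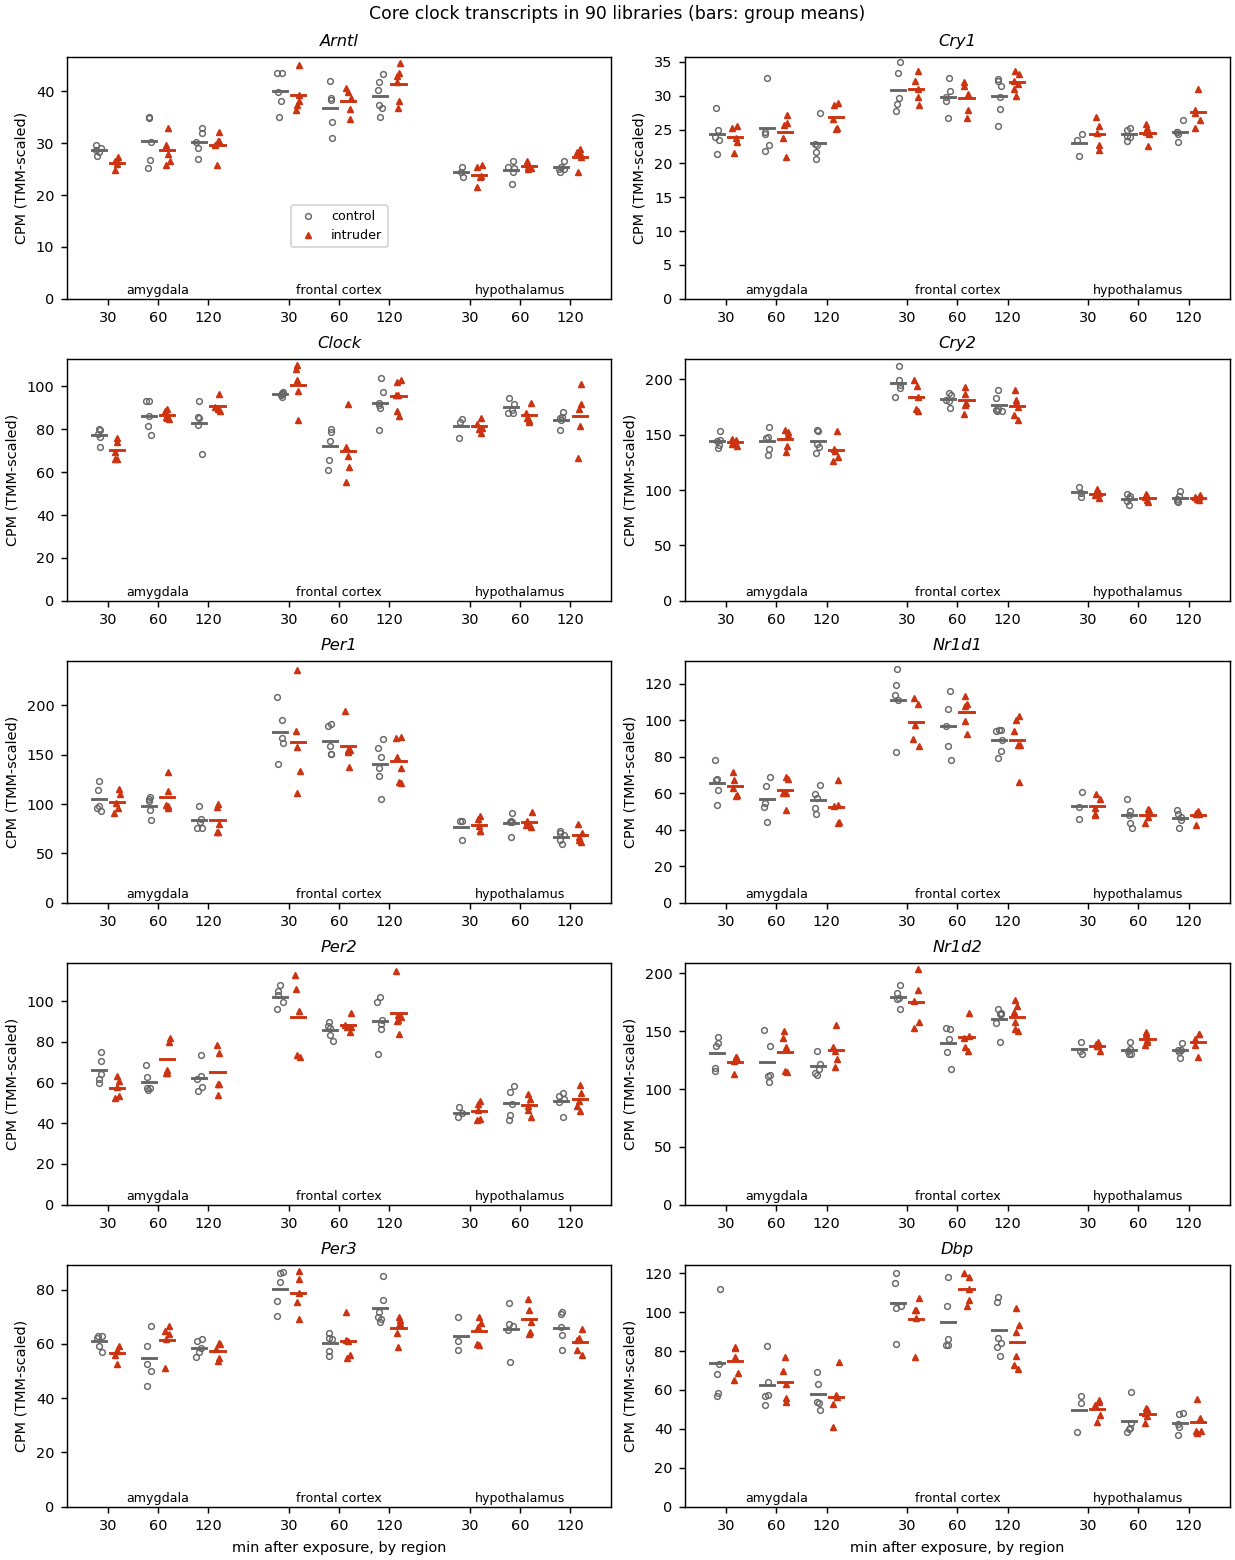
TMM-scaled CPM of each clock gene (vertical axis) in 90 libraries by region and min after exposure, with open circles for controls, triangles for intruder animals and bars at group means. Control and intruder libraries overlap in all groups but Arntl in amygdala at 30 min, and in frontal cortex Clock, Per3 and Nr1d2 have lower means at 60 than at 30 min in both conditions.

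Time after exposure was compared next, in controls and in intruder animals separately. In frontal cortex Per3, Clock and Nr1d2 fell from 30 to 60 min in both conditions. In controls, 5 of the 10 genes were called over the 3 times (Per3, Cry2, Clock, Nr1d1 and Nr1d2), beside 33.4% of 17091 genes, and in intruder animals 4 were (Per3, Clock, Nr1d2 and Dbp), beside 46.1%. In amygdala 0 members were called in controls (background 0.232%), where 2 had an unadjusted p below 0.05 (background 10.9%) and DESeq2 gave 0, and Clock was called in intruder animals (background 12.9%). There DESeq2 called Per1 (0.0239) and Per2 (0.0443) as well, and the fit with the replicate number as a block called Per1 (0.0331), Per2 (0.0339) and Nr1d1 (0.0126) as well. In hypothalamus 0 were called in controls (background 0.181%), where 1 had an unadjusted p below 0.05 (background 9.88%) and DESeq2 gave 0. In intruder animals of that region 0 were called (background 1.49%), 3 had an unadjusted p below 0.05 (background 14.4%), and Arntl was called by DESeq2. The backgrounds of the pairs of times used below were 35.4%, 15.9% and 4.42% in frontal cortex of controls (30 to 60, 60 to 120 and 30 to 120 min), 45.5% and 22.9% in frontal cortex of intruder animals (30 to 60 and 60 to 120 min), and 7.41% and 15% in amygdala of intruder animals (30 to 60 and 30 to 120 min).

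Clock in frontal cortex of controls was at 97.4, 96.5, 96.0, 95.2 and 96.7 CPM at 30 min and 65.5, 78.5, 80.3, 61.1 and 74.5 CPM at 60 min, and ran from 79.7 to 104 CPM with a median of 91.9 at 120 min. The 30 min libraries lay within a narrow band above all libraries of 60 min, and 120 min overlapped 30 min. The change from 30 to 60 min was -0.43 (SE 0.096, adjusted p = 0.00103) and that from 60 to 120 min 0.36 (SE 0.093, adjusted p = 0.0131, 0.0609 without control 5 at 60 min). In intruder animals the same changes were -0.53 (adjusted p = 5.23e-05) and 0.45 (adjusted p = 0.00289), the latter 0.60 with an adjusted p of 0.0506 when the leading index was a block.

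Clock in amygdala moved the other way in intruder animals. In amygdala controls it ran from 71.7 to 80.0, from 77.5 to 93.2 and from 68.4 to 93.1 CPM at 30, 60 and 120 min. These ranges overlapped, and no pair of times was called. After an intruder it was at 66.0, 73.9, 69.2, 75.7 and 66.0 CPM at 30 min, 89.3, 88.4, 85.0, 85.1 and 85.9 CPM at 60 min and 90.3, 90.1, 88.6, 89.4 and 96.6 CPM at 120 min. All libraries of the later times lay above all those of 30 min, by 0.31 at 60 min (SE 0.060, adjusted p = 0.00316) and 0.38 at 120 min (SE 0.060, adjusted p = 0.000245). The summed level of 4 astrocyte markers in amygdala of both conditions ran from 984 to 1170 CPM at 30 min, from 1150 to 1260 at 60 min and from 1060 to 1370 at 120 min (medians 1030, 1200 and 1150), and its part in the rise of Clock was not tested. With the leading index as a block, which shares most of its contrast with time, the differences were 0.277 and 0.323 with adjusted p-values of 0.673 and 0.5. Among the members, Clock alone had a time course that differed between regions in controls (adjusted p = 7.99e-05, background 17.1%), and with the animal that gave the regions as a block Per2 (adjusted p = 0.0471) and Nr1d2 (adjusted p = 0.0466) passed as well.

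Transcripts as long as Clock moved with it. In frontal cortex of controls, genes with 10 kb of exon or more had a median change of -0.25 from 30 to 60 min, with 12.9% of them higher, and of 0.164 from 60 to 120 min, with 87.5% higher. In amygdala of intruder animals their median rose by 0.141 from 30 to 60 min. The share of reads without a feature in frontal cortex had medians of 11.7%, 9.23% and 9.99% at 30, 60 and 120 min, and the summed level of 5 oligodendrocyte markers had medians of 2900, 4560 and 4200 CPM. The range of 5 to 10 kb holds Per1, Per2, Per3, Cry2, Arntl and Nr1d2, of which Per1 and Arntl were not called from 30 to 60 min. Genes of that range had a median change of -0.0787 from 30 to 60 min in frontal cortex of controls (34.9% higher). In intruder animals it was -0.104 (32.9% higher). From 30 to 60 min the marker sums in frontal cortex went from 1110 to 927 CPM for astrocytes, from 144 to 101 CPM for thalamus and from 70.6 to 104 CPM for blood. The thalamus markers include Rora, which is also among the further clock genes described below. The mural cell sum ran from 158 to 197 CPM at 30 min and from 97.3 to 146 CPM at 60 min, without overlap. The part of length and of cell makeup in the changes of Clock, Per2, Per3, Cry2 and Nr1d2 was not tested.

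Per3 in frontal cortex of controls was at 86.0, 86.4, 82.7, 75.9 and 70.3 CPM at 30 min and 64.0, 62.2, 57.4, 55.6 and 61.9 CPM at 60 min, and ran from 68.2 to 84.8 CPM with a median of 70.8 at 120 min. The 60 min libraries lay below all others. The change from 30 to 60 min was -0.42 (SE 0.072, adjusted p = 9.19e-05) in controls and -0.38 (SE 0.072, adjusted p = 9.67e-05) in intruder animals. From 60 to 120 min it was 0.29 in controls (adjusted p = 0.0116, 0.0546 without control 5 at 60 min) and 0.12 in intruder animals (adjusted p = 0.214, and 0.189 with 0.029 without intruder animal 1 at 60 min).

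Nr1d2, whose protein represses Arntl, was at 178, 169, 190, 183 and 179 CPM at 30 min and 132, 152, 143, 117 and 153 CPM at 60 min in frontal cortex of controls, and ran from 141 to 169 CPM with a median of 165 at 120 min. Again 30 min lay above 60 min without overlap. The change from 30 to 60 min was -0.38 in controls (SE 0.075, adjusted p = 0.000405) and -0.28 in intruder animals (SE 0.075, adjusted p = 0.00271). For Nr1d1 the adjusted p over the 3 times in controls was 0.0442, which was lost with no filter on low counts (0.0558) and in 9 of 32 fits that left out a library, and no pair of times passed. Its change was -0.21 from 30 to 60 min (adjusted p = 0.136, and -0.295 with 0.031 without control 5 at 30 min) and -0.33 from 30 to 120 min (adjusted p = 0.0699). The latter was called by DESeq2 (0.0388), with the replicate number as a block (0.043), without control 5 at 30 min (0.0272) and without intruder animal 4 at 120 min (0.0479). Whether Nr1d1 and Nr1d2 differ in their change was not tested. Cry2 fell by 0.16 on the log2 scale from 30 to 120 min in controls (SE 0.044, adjusted p = 0.0337), from 192, 195, 199, 212 and 184 CPM to a range of 171 to 190 CPM, and this call was lost with no filter on low counts (0.0696) and in 8 of 32 fits that left out a library.

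Dbp, in frontal cortex of intruder animals, was at 112, 118, 103, 120 and 106 CPM at 60 min and from 70.9 to 102 CPM at 120 min. All libraries of 120 min were below those of 60 min, a change of -0.40 (SE 0.108, adjusted p = 0.0102) that was -0.133 (adjusted p = 0.692) with the leading index as a block. In controls Dbp ran from 83.2 to 118 CPM at 60 min and from 77.6 to 108 CPM at 120 min, which overlapped.

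The remaining calls between times were close to the threshold or smaller. In frontal cortex of controls Per2 fell by 0.26 (adjusted p = 0.0299) and Cry2 by 0.12 (adjusted p = 0.0366) on the log2 scale from 30 to 60 min, and Nr1d2 rose by 0.21 from 60 to 120 min (adjusted p = 0.0499). These calls were kept in 27, 15 and 7 of 32 fits that left out a library. With no filter on low counts those of Cry2 (0.0706) and Nr1d2 (0.0656) were lost, and with the replicate number as a block that of Cry2 (0.07). In frontal cortex of intruder animals Per3 fell by 0.26 from 30 to 120 min (adjusted p = 0.0106, background 17.7%). In amygdala of intruder animals Per2 rose by 0.31 from 30 to 60 min (adjusted p = 0.0466), a call kept in 10 of 30 fits that left out a library and lost with no filter (0.0723), with only the groups compared (0.0743) and with the leading index as a block (0.565). Arntl in hypothalamus of intruder animals rose by 0.19 from 30 to 120 min (adjusted p = 0.0471, background 1.93%), kept in 6 of 28 such fits and lost with no filter on low counts (0.0919), with only the groups compared (0.101) and with the replicate number as a block (0.0947).

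In a fit over both conditions, an alternative added after the data were seen, Per1 was called between 30 and 120 min in amygdala and between 60 and 120 min in hypothalamus. In amygdala it ran from 91.0 to 123 CPM at 30 min (median 99.5, n = 10), from 83.4 to 132 at 60 min (median 101, n = 10) and from 71.4 to 100 at 120 min (median 80.8, n = 10). The change from 30 to 120 min was -0.31 (SE 0.076, adjusted p = 0.00959, background 9.78%), a call that held in all 30 fits that left out 1 library and went to -0.00578 (adjusted p = 0.997) with the leading index as a block. From 60 to 120 min Per1 changed by -0.30 in amygdala (adjusted p = 0.0866). That change was called by DESeq2 (0.021) and in edgeR without control 2 (0.0429) or intruder animal 1 (0.0403) at 120 min. Dbp changed by -0.38 from 30 to 120 min in amygdala (adjusted p = 0.0339), a call kept in 22 of 30 fits, and by 0.025 with that block. In hypothalamus Per1 ran from 66.7 to 92.0 CPM at 60 min and from 59.3 to 79.5 at 120 min (-0.27, SE 0.061, adjusted p = 0.0473, background 0.373%, held in 9 of 28 such fits). In frontal cortex the change from 30 to 120 min was -0.25 (adjusted p = 0.0597). It was called by DESeq2 (0.0452) and in some edgeR fits that left out a library (adjusted p from 0.0162 to 0.0472). The summed level of 4 endothelial markers had medians of 127, 117 and 86.3 CPM at 30, 60 and 120 min in amygdala and 104, 96.5 and 88.3 CPM in hypothalamus. That of 4 mural cell markers was 139, 139 and 104 CPM in amygdala and 109, 101 and 86.3 CPM in hypothalamus. Their part in the change of Per1 was not tested. Over the 3 times, the fit with both conditions called 2 members in amygdala (Per1 and Clock, background 11.3%), 6 in frontal cortex (background 58%) and 1 in hypothalamus (Per1, background 2.84%). With the replicate number as a block, Nr1d1 (adjusted p = 0.00554) and Dbp (0.0244) were called in amygdala as well, and DESeq2 also called Dbp there (0.0284).

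Among the 20 further clock genes, Sik1, a kinase induced by cAMP signalling that dampens light resetting, fell over the 3 times in controls and in intruder animals of every region. With both conditions together its change from 30 to 120 min was -0.67 in hypothalamus (adjusted p = 3.84e-07), -0.59 in amygdala (5.5e-06) and -0.72 in frontal cortex (0.00118). In controls it was the 1 called gene of the 20 in amygdala (background 0.232%) and in hypothalamus (background 0.181%). In frontal cortex of controls 9 of the 20 were called (background 33.4%). From 30 to 60 min in frontal cortex of controls, 1 of the 20 was called higher (Nfil3, the D-box repressor, 0.37) and 7 lower. The background was 35.4% of all genes, called in either direction. Among the 7 were the Arntl activators Rora (-0.68) and Rorb (-0.51) and the Arntl paralog Arntl2 (-0.45).

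Whether the clock genes of an animal deviate together in its regions was examined with each library's log2(CPM + 1) as a difference from its group mean. In total 30 relations were computed, 10 genes by 3 pairs of regions, with permutation p-values from shuffling animals within groups and Benjamini-Hochberg adjustment. After adjustment 11 passed 0.05, of which 4 were between amygdala and frontal cortex, 3 between amygdala and hypothalamus and 4 between frontal cortex and hypothalamus. The median r over all genes was 0.0648, 0.15 and 0.113 in these pairs. The share of all genes with an r at or above that of a member that passed ran from 0.365% (Per1) to 1.69% (Arntl) in the first pair, from 2.57% (Nr1d1) to 13.6% (Arntl) in the second, with 11.8% for Cry2, and from 0.9% (Dbp) to 4.48% (Per1) in the third.

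Per1 in amygdala and frontal cortex of 30 animals gave r = 0.709 (permutation p = 1e-05, the smallest the permutations can give, adjusted p = 0.0003) and rho = 0.733 (permutation p = 1e-05, adjusted p = 0.0003). It was 0.741 without the 2 animals farthest from the median, 0.792 within ISO and 0.717 within CERV, and 23 of the 30 animals deviated to the same side in both regions. Between frontal cortex and hypothalamus Per1 gave r = 0.489 (adjusted permutation p = 0.0313) and rho = 0.635 (0.0077) in 28 animals, with r = 0.781 without the 2 farthest animals, 0.196 within ISO and 0.755 within CERV. Between amygdala and hypothalamus it gave r = 0.401 (adjusted permutation p = 0.101). By animal number, the mean log2 deviation of Per1 in amygdala, frontal cortex and hypothalamus was 0.168, 0.131 and 0.101 for number 1, -0.0978, -0.111 and -0.0858 for number 5 and -0.0261, -0.155 and -0.177 for number 6. It differed in sign between regions for numbers 2 (-0.00915, -0.0265 and 0.00877), 3 (-0.0196, 0.0282 and 0.0624) and 4 (-0.0734, 0.0667 and -0.0147). The part of the number in these relations was not tested.

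Nr1d1 was related in all 3 pairs. In amygdala and hypothalamus of 28 animals it gave r = 0.702 (permutation p = 0.00014, adjusted p = 0.0021) and rho = 0.712 (permutation p = 0.00018, adjusted p = 0.0027), with 0.69 without the 2 farthest animals, 0.91 within ISO and 0.665 within CERV, and 25 of 28 animals on the same side. Its mean log2 deviation by animal number ran from 0.207 (number 1) to -0.259 (number 6) in amygdala and was 0.139, 0.0654, 0.0167, -0.0918, -0.151 and -0.0728 from number 1 to 6 in hypothalamus, and the part of the number in this relation was not tested. With deviations taken within group and leading index, r was 0.41 (adjusted permutation p = 0.183). In amygdala and frontal cortex r was 0.591 (permutation p = 0.0042, adjusted p = 0.0252) and rho 0.636 (adjusted p = 0.0077). In frontal cortex and hypothalamus r was 0.571 (permutation p = 0.00912, adjusted p = 0.0313) and rho 0.458 (adjusted p = 0.0923), with r = 0.439 without the 2 farthest animals.

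Arntl passed in all 3 pairs too, with r = 0.551, 0.476 and 0.571 and adjusted permutation p-values of 0.0313, 0.0448 and 0.0313 (amygdala and frontal cortex, amygdala and hypothalamus, frontal cortex and hypothalamus), and with rho of 0.507, 0.321 and 0.507 (adjusted permutation p = 0.0319, 0.225 and 0.0344). Without the 2 farthest animals its r was 0.456, 0.213 and 0.558, so between amygdala and hypothalamus the relation rested on those animals. Within CERV its r was 0.689, 0.732 and 0.734, and within ISO it was -0.0147, -0.727 and 0.206 over 10, 8 and 8 animals in the order of the pairs. Between amygdala and hypothalamus its sign thus differed between the tags. Dbp gave r = 0.639 (permutation p = 0.00297, adjusted p = 0.0223) and rho = 0.657 (adjusted p = 0.0077) in frontal cortex and hypothalamus, and 0.0453 in amygdala and hypothalamus. Per2 gave r = 0.556 (permutation p = 0.00096, adjusted p = 0.0096) and rho = 0.595 (adjusted p = 0.0077) in amygdala and frontal cortex, and Cry2 gave r = 0.501 (permutation p = 0.0104, adjusted p = 0.0313) and rho = 0.547 (adjusted p = 0.0235) in amygdala and hypothalamus. Without control 6 at 60 min, an amygdala library that stands apart, the relation of Cry2 was r = 0.41 (adjusted permutation p = 0.0707) and that of Arntl in the same pair 0.479 (0.0629), while that of Per1, which had not passed there with all libraries, passed. Clock, Cry1 and Nr1d2 passed in no pair. By rank alone, Per3 (rho = 0.558, adjusted permutation p = 0.0262) and Per2 (rho = 0.534, adjusted permutation p = 0.0235) passed between frontal cortex and hypothalamus, where their r was 0.432 (0.0756) and 0.445 (0.0539). Deviations taken within group and leading index left 2, 0 and 1 relations past 0.05.

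**Figure D4:**
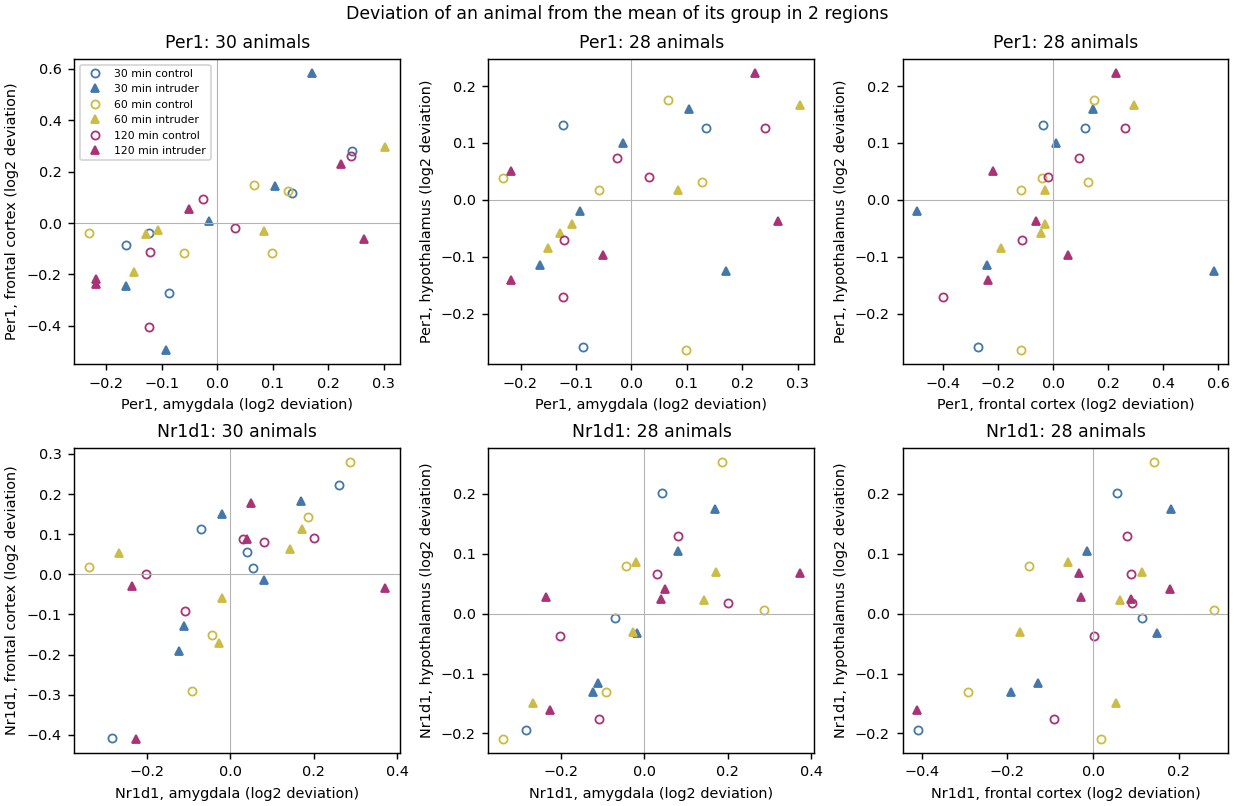
Log2 deviation of an animal from its group mean in 1 region (horizontal axis) against another (vertical axis) for Per1 (top) and Nr1d1 (bottom), with 1 point per animal, colours for time and symbols for condition. Points spread along a rising line most clearly for Per1 in amygdala and frontal cortex (r = 0.709) and for Nr1d1 in amygdala and hypothalamus (r = 0.702).

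Within a region, the 45 pairs of members were compared in the same way, with p-values adjusted over all pairs of the 3 regions, where both values come from 1 library and share its depth and makeup. In amygdala 14 pairs passed an adjusted permutation p of 0.05 (13 positive, 1 negative, median r over the 45 pairs 0.132), in frontal cortex 9 (8 positive, 1 negative, median 0.238) and in hypothalamus 10 (9 positive, 1 negative, median 0.2). Over all genes, the share with an r of at least 0.5 with a member ran from 1.53% (Per2) to 16.7% (Nr1d2) in amygdala, from 1.14% (Dbp) to 14.1% (Clock) in frontal cortex and from 0.464% (Arntl) to 13.9% (Clock) in hypothalamus. By Pearson's r, 2 pairs passed in all 3 regions, and both join Period genes. Per1 and Per2 gave r = 0.872, 0.802 and 0.727 in amygdala, frontal cortex and hypothalamus (adjusted permutation p = 0.00054, 0.00045 and 0.00116), with rho = 0.815, 0.805 and 0.735 and r = 0.851, 0.706 and 0.701 without the 2 farthest libraries. Per2 and Per3 gave r = 0.499, 0.555 and 0.785 (adjusted permutation p = 0.02, 0.0152 and 0.00054), with rho = 0.454, 0.662 and 0.736 (adjusted permutation p = 0.0608, 0.00209 and 0.00135), so in amygdala the pair did not pass by rank.

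Other pairs differed by region, and these differences between regions were not tested. Nr1d1 and Dbp, both driven by the dimer, were related in frontal cortex (r = 0.714, rho = 0.72, adjusted permutation p = 0.00112) and hypothalamus (r = 0.756, rho = 0.709, adjusted permutation p = 0.0012). Cry2 and Nr1d1 (r = 0.862, rho = 0.845), Nr1d2 and Dbp (r = 0.808, rho = 0.837) and Cry1 and Nr1d2 (r = 0.738, rho = 0.719) passed in amygdala alone, with adjusted permutation p-values of 0.00045, 0.00045 and 0.0012. In amygdala the share of all genes with an r of at least 0.5 was 16.7% for Nr1d2, 15.9% for Cry1, 12.9% for Dbp, 8.95% for Nr1d1 and 8.67% for Cry2. Cry2 and Nr1d1 are also the members called there for the animal number of the labels: from number 1 to number 6 the mean log2 deviations were 0.0742, 0.0516, 0.011, -0.0645, -0.0732 and -0.0684 for Cry2 and 0.207, 0.134, -0.0152, -0.082, -0.191 and -0.259 for Nr1d1. The part of the number in their correlation was not tested. The negative pairs each joined an activator with another member: Arntl and Dbp in frontal cortex (r = -0.667, rho = -0.639, adjusted permutation p = 0.00503), Per3 and Arntl in amygdala (r = -0.666, rho = -0.476, adjusted permutation p = 0.0358 by r and 0.115 by rank, so it did not pass by rank, within ISO 0.356) and Clock and Dbp in hypothalamus (r = -0.618, rho = -0.604, adjusted permutation p = 0.00619). In hypothalamus 13.6% of all genes had an r with Clock of -0.5 or lower.

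**Figure D5:**
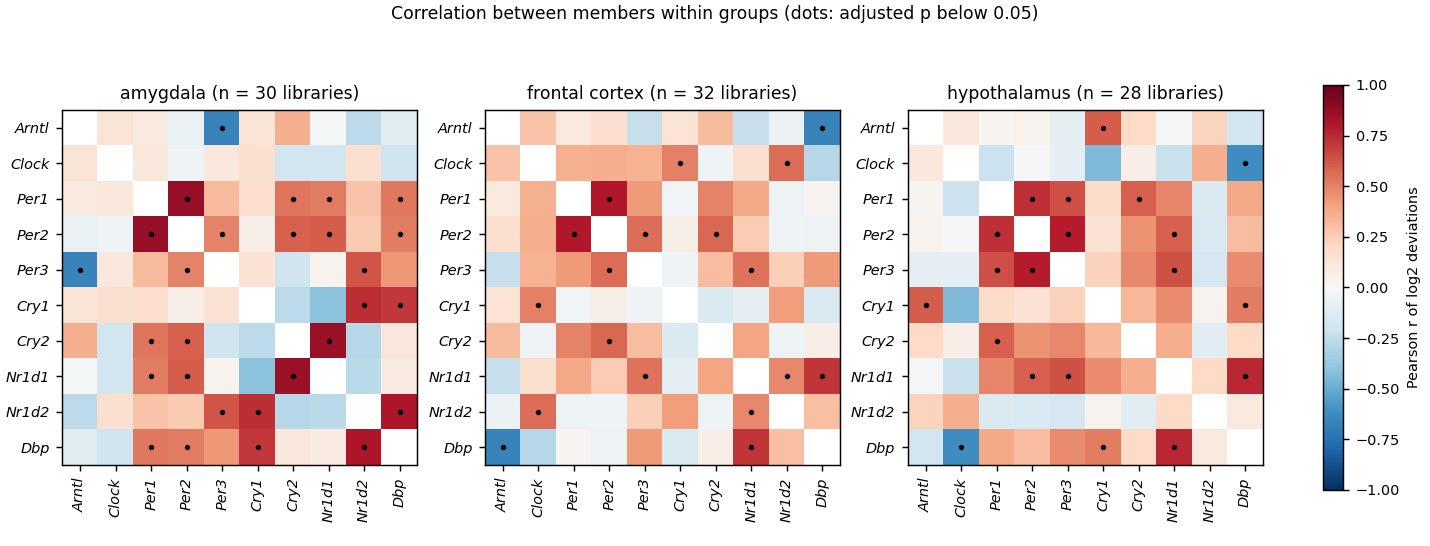
Pearson r between log2 deviations of each pair of clock genes, in 1 panel per region, on a colour scale from blue (negative) to red (positive), with dots where the adjusted permutation p is below 0.05. Per1 with Per2 is high in all 3 panels (0.872, 0.802 and 0.727), and Arntl with Dbp is negative in frontal cortex (-0.667).

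Per1 was also set beside 4 glucocorticoid-responsive genes and 4 activity-induced genes in each region, 24 relations in all. With Nr4a1, an activity-induced nuclear receptor, Per1 gave r = 0.688, 0.868 and 0.509 in amygdala, frontal cortex and hypothalamus (adjusted permutation p = 0.00036, 8e-05 and 0.0116, rho = 0.679, 0.799 and 0.582). With Fkbp5, a glucocorticoid-induced chaperone of the receptor, it gave r = 0.522, 0.56 and 0.712 (adjusted permutation p = 0.0134, 0.00441 and 8e-05, rho = 0.444, 0.571 and 0.731). Junb, Nr4a1 and Fkbp5 passed in all 3 regions, Tsc22d3 in amygdala (r = 0.716, adjusted permutation p = 0.0003) and hypothalamus (r = 0.605, adjusted permutation p = 0.0054), and Fos in frontal cortex (r = 0.799, adjusted permutation p = 0.000336). Egr1 passed in amygdala (r = 0.684, adjusted permutation p = 0.000891) and frontal cortex (r = 0.666, adjusted permutation p = 0.00501), Sgk1 in the same regions (r = 0.453 and 0.336, adjusted permutation p = 0.0486 in both, by rank 0.0599 and 0.0381, so not by rank in amygdala) and Pdk4 in hypothalamus (r = 0.45, adjusted permutation p = 0.028). The correlations are of deviations within groups and carry no direction of effect.

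Over all 90 libraries, the genes whose deviations were most like each member's were listed by Pearson r, as a description. Per1 and Per2 were each other's nearest gene (r = 0.794), and Nr4a1 was the third for Per1 (0.758). For Cry2 the list held Bhlhe40 (0.758), and for Dbp it was led by Ciart, a repressor of the dimer (0.745). For Nr1d1 it held Rbm3, a cold-induced RNA-binding protein (0.642), and the nearest gene for Arntl was Msl1 (0.631). For Clock the list was Dpp8 (0.918, 13.7 kb of exon), Bod1l (0.908, 12.0 kb) and Ranbp2 (0.907, 11.7 kb), which says nothing of changes between groups. Within a group, Dbp varied most in amygdala and hypothalamus, with a mean coefficient of variation over groups of 18.4%, 12.8% and 13.8% (amygdala, frontal cortex, hypothalamus), and Cry2 least, at 5.4%, 5.05% and 3.54%. In frontal cortex the mean of Per1 (16.1%) was above that of Dbp.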

How the data were processed

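The deposited file holds whole-number read counts per Ensembl gene for 90 libraries of poly(A) RNA, with 5 further lines for reads not assigned to a gene, which were left out. Per the labels' protocols, libraries came from a stranded mRNA kit with single-end reads. The submitters' processing notes name CASAVA 1.8.2, TopHat2 2.0.8, HTSeq 0.6.1, edgeR 3.2.4, R 3.0.0 and build NCBIM37. The strand setting of counting is not given in the sources used here. The series text says that RNA samples were pooled to make libraries, and each library is labelled with 1 animal, so p-values measure the spread between these libraries.

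Symbols and exon lengths came from Gencode M21 (GRCm38), which named 32919 of 37991 identifiers. Counts were fitted with edgeR 4.0.16 in R 4.3.3 (TMM scaling, genes kept by filterByExpr with a minimum count of 10, quasi-likelihood F tests, Benjamini-Hochberg adjustment over all genes tested, called below 0.05). Each region was fitted with its 6 groups, and controls of all regions with 9 groups. The steps were tested on simulated data. Correlations used log2(CPM + 1) as deviations from group means, with 100000 permutations within groups. The regions of 1 animal carry its label and so are paired by animal, and the fit with the animal as a block left the region counts as they were. DESeq2 1.42.0, other scaling, no filter, blocks and left-out libraries were alternatives. The genes named are the 10 members, called genes among 20 further clock genes, for each member the 3 genes of highest r over all libraries, and 8 inputs of Per1. The members and lists were chosen with earlier results of these data known.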

Additional observations from a re-analysis of the deposited data

Results flagged for a closer look

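In 170 groups of a gene, region, time and condition with 5 or 6 libraries, 6 held a library far from the rest by Dixon's criterion, and chance alone marks about 1 in 20 groups. Per2 was at 115 CPM in frontal cortex of intruder animal 3 at 120 min, where the other libraries ran from 83.7 to 93.2. Cry1 was at 32.7 CPM in amygdala of control 6 at 60 min, against 21.8 to 24.6, in the library that also stood apart in other genes. Clock was at 96.6 CPM in amygdala of intruder animal 6 at 120 min, against 88.6 to 90.3. Nr1d1 was at 42.7 CPM in hypothalamus of intruder animal 4 at 120 min, against 48.7 to 50.2. Nr1d2 was at 113 CPM in amygdala of intruder animal 3 at 30 min, against 124 to 128. Dbp was at 59.0 CPM in hypothalamus of control 1 at 60 min, against 38.4 to 43.2.

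The time course of Clock in controls differed between the 3 regions by a test of the difference itself (edgeR, adjusted p = 7.99e-05).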

How the results depend on the processing

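The intruder comparisons held 0 called members under every setting run and without any single library. Of 170 counts of called members or relations under other settings, 156 were within 1.5 times the reported count. In amygdala of intruder animals the count over time went from 1 to 3 in DESeq2, 0 with the leading index as a block and 4 with the replicate number as a block, and with both conditions from 2 to 0 and 4 with those blocks. In hypothalamus of intruder animals DESeq2 gave 1 for 0. The time course by region went from 1 to 2 in DESeq2 and 3 with the animal as a block. Deviations within group and leading index left 2 of 4, 0 of 3 and 1 of 4 relations between regions and 6 of 10 pairs in hypothalamus. With the index block, Dbp in amygdala from 30 to 120 min went from -0.38 to 0.025, and Arntl between regions turned to -0.0147 and -0.727 within ISO. Index and time overlap so far that the block removes most of the time contrast.

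With 1 library or animal number left out, counts over time ran from 1 to 3 (amygdala, intruder), 2 to 3 (amygdala, both conditions), 3 to 6 (frontal cortex, controls), 6 to 8 (frontal cortex, both), 0 to 1 (hypothalamus, intruder), 0 to 2 (hypothalamus, both) and 1 to 3 (time course by region). Region counts ran from 8 to 9, 9 to 10 and 6 to 8. Deviations across genes of control and intruder libraries with the same replicate number gave r from -0.65 to 0.68 over 41 pairs. In 0 of 9 sets were all pairs above 0.1, and the main fits did not pair by number. These values do not test the number for single genes, for which its term is given below. The replicate block left 5 and 4 calls over time in frontal cortex.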

Other observations

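The animal number of the labels, whose meaning they do not give, was fitted as a term after the data were seen. In amygdala it was called for Nr1d1 (adjusted p = 0.00273) and Cry2 (adjusted p = 0.038, edgeR), beside 6.29% of all genes, and the number of called members ran from 1 to 5 and of all genes from 13 to 2669 when 1 library was left out. DESeq2 called 6 members in amygdala and 3 in hypothalamus, where edgeR called 0, as it did in frontal cortex. The share of all genes that DESeq2 called for the number is not given here, so its counts have no background. Nr1d1 in amygdala lay above its group mean in 6 of 6 libraries numbered 1 (mean log2 deviation 0.207) and 6 of 6 numbered 2 (0.134), and in 0 of 4 numbered 5 (-0.191) and 0 of 3 numbered 6 (-0.259). In hypothalamus it lay above in 5 of 5 libraries numbered 1 (0.139), 0 of 4 numbered 5 (-0.151) and 1 of 3 numbered 6 (-0.0728). In frontal cortex it lay above in 5 of 6 numbered 1 (0.118), 2 of 6 numbered 5 (-0.133) and 2 of 3 numbered 6 (-0.00339).

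Among 7 markers of the suprachiasmatic nucleus, levels in hypothalamus ran from 3.89 to 16.0 CPM for Lhx1, from 0.496 to 2.11 for Nms, from 2.27 to 11.3 for Vipr2 and from 141 to 532 for Avp, which other hypothalamic nuclei also express. Vip ran from 1.23 to 23.9 CPM there, against 33.8 to 56.2 in frontal cortex and 10.1 to 36.0 in amygdala, and Prok2 from 0.383 to 2.42, against 0.492 to 3.94 in amygdala.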
